A study of Mus musculus with 24 samples.

Results

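The genes examined here encode the degradative machinery of the lysosome and the proton pump that acidifies it. They are 40 genes listed by name and role: 10 proteases, 8 other hydrolases and hydrolase activators, 6 membrane proteins and sterol carriers, the transcription factors Tfeb and Tfe3, and 14 subunits and accessory proteins of the vacuolar proton pump (V-ATPase). All 40 were found by symbol among the 55487 Ensembl genes of the tables, and all 40 were among the 14690 genes tested, so none was lost to the filter on low values.

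Polyadenylated RNA from the gastrocnemius, a calf muscle of mostly fast fibres, was sequenced in 24 male C57BL/6J mice, 1 library per mouse, in 3 groups of 8. The casted with MOTS-c group had both hindlimbs immobilised in casts for 8 days and received 15 mg/kg/day of MOTS-c, a short peptide whose reading frame lies in the 12S rRNA gene of mitochondria. The casted group had the same casts and received sterile water. The uncasted group had no cast and received sterile water. Every mouse was injected into the peritoneum 2 times a day for 8 days, was assigned to its group at 10 weeks of age and is labelled as 12 weeks old. The comparisons ask what casting did to the lysosomal transcripts, and whether they differed when casted mice also received MOTS-c.

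Lysosomes break down proteins, glycogen, glycans and lipids delivered by autophagy and endocytosis. Their hydrolases work in an acidic lumen, which the V-ATPase maintains by pumping protons: the cytosolic V1 sector hydrolyses ATP and the membrane-embedded V0 sector carries the protons. In skeletal muscle, lysosomal breakdown of glycogen and of autophagic cargo is needed for fibre integrity, and loss of the glycogen hydrolase encoded by Gaa or of the membrane protein encoded by Lamp2 causes autophagic myopathies in humans. TFEB and TFE3 are related transcription factors that bind the letters CACGTG, in particular within TCACGTGA, in promoters of many lysosomal genes.

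Values are TPM, the length-corrected share of each gene in its library's total, so the number of reads behind them is unknown. They were scaled here between libraries so that the bulk of genes was level, and are called scaled TPM. Differences are log2 changes of scaled TPM + 1 from limma, a gene-wise linear model, and a change passed when its two-sided Benjamini-Hochberg adjusted p over all genes tested was under 0.05. On the deposited TPM without this scaling, the median of all genes was 0.39 higher (log2) in casted than in uncasted libraries and 0.34 higher in casted with MOTS-c than in uncasted libraries, so a fall below is relative to the bulk of genes. Changes "with MOTS-c" and "with casting alone" are both against uncasted muscle, unless casted muscle is named. The libraries had 19832 to 21755 genes above 0. The 7 muscle fibre markers summed to between 68678 and 121858 scaled TPM in casted with MOTS-c libraries, 64016 and 100169 in casted libraries and 139675 and 163156 in uncasted libraries, and 6 of the 7 fell in each casted group (4 with MOTS-c and 5 with casting alone on the deposited scale). In a whole muscle, fewer cells of a type and less RNA per cell cannot be told apart.

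Replicate 5 of the casted with MOTS-c group stood apart from the rest of its group. It held the group's lowest value for 19 of the 40 genes, and its Ctsl level of 90.6 scaled TPM was below every uncasted library. The casted group was also uneven: with only casted replicates 5 to 8 kept, 678 genes were higher and 838 lower in casted with MOTS-c than in casted muscle, and with only replicates 1 to 4 kept 1 gene was higher and 1 lower. Values without replicate 5, or with either part of the casted group, are given below for the genes named with the largest changes. The labels give no batch or other basis for this cut of the casted group. Fits on either part therefore show how far a value depends on the libraries kept, and are not separate results.

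In casted against uncasted muscle, 20 of the 40 genes rose, 6 fell and 14 did not pass. Over all genes tested, 28.7% rose and 27.7% fell, 56.5% in all. The median log2 change was 0.23 over the 40 genes and 0.01 over all genes tested. In 14 of the 40 genes every casted library lay above every uncasted library (11.5% of all genes), and in 1, Psap, every casted library lay below (10.9% of all genes). In casted with MOTS-c against uncasted muscle, 21 rose, 4 fell and 15 did not pass, where 26.0% of all genes rose and 24.7% fell, 50.7% in all. Leaving out each library in turn gave 18 to 23 rises and 4 falls, with the highest count, 23, when MOTS-c replicate 5 was left out. All casted with MOTS-c libraries lay above all uncasted libraries in 6 of the 40 genes (7.26% of all genes) and below in 3 (8.15%). The comparisons with the uncasted group share its 8 libraries, so they are not independent of each other. Of the 20 rises with casting, 15 passed in the same direction in all 33 alternative fits, and none of the 6 falls did. One of these fits, the deposited scale, raised the median of all genes by 0.39 and made each fall a positive change. It thus favours rises, and these counts do not show that rises were the firmer result. Ctsa and Ctsb also lost their calls with only casted replicates 5 to 8 kept, Lipa with only 1 to 4 kept, and Atp6v1b2 with either.

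**Figure D1:**
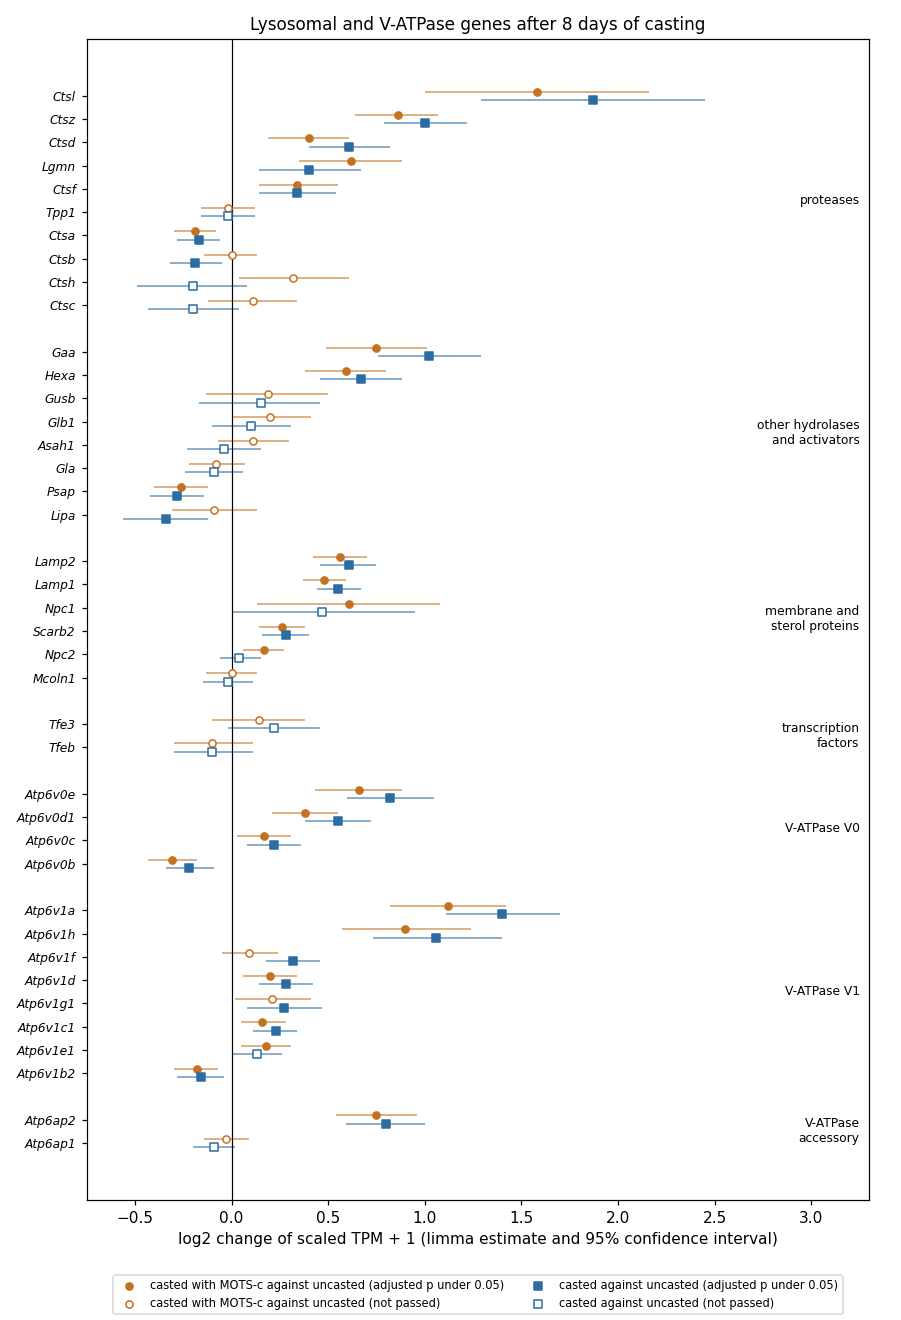
Log2 change (x axis) of each of the 40 genes (y axis, grouped by role) in casted with MOTS-c against uncasted libraries (circles) and in casted against uncasted libraries (squares), with 95% confidence intervals from limma; filled symbols passed at an adjusted p under 0.05. Ctsl had the largest change, at 1.58 and 1.87, and the symbols left of 0 are positive on the deposited scale.

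Promoters are shown for the 3 members with the largest rises among those whose promoter holds CACGTG, and for Ctsz, which rose and lacks those letters. RefSeq windows of 300 bases, from 250 before to 50 after the annotated start (GRCm38.p6), were found for 32 of the 40 genes, 40 windows in all. Asah1, Atp6v1b2, Atp6v1c1, Atp6v1g1, Atp6v1h, Ctsb, Ctsh and Npc1 had no window. CACGTG, which reads the same on both strands, was in 14 of the 40 windows (35.0%) and in 2349 of 32851 windows of all genes (7.15%). The longer TCACGTGA, which contains it and also reads the same on both strands, was in 7 windows of the members (17.5%) and in 320 of all windows (0.974%). The letters were found in genes of each kind of response to casting: in 9 of the 17 genes with a window that rose, in 2 of the 4 that fell, and in 3 of the 11 that did not pass. A match describes the sequence and does not show that a factor was bound.
In the sequences below, written 5′ to 3′ on the gene's strand, capitals mark CACGTG; relative to the RefSeq start its first base is at -236 in Ctsl, at -131 in Atp6v1a, where it lies within TCACGTGA, and at -140 in Gaa. The GENCODE models of Ctsl, Atp6v1a and Gaa begin further upstream than the RefSeq start.
Ctsl, chr13:64370471-64370770, minus strand: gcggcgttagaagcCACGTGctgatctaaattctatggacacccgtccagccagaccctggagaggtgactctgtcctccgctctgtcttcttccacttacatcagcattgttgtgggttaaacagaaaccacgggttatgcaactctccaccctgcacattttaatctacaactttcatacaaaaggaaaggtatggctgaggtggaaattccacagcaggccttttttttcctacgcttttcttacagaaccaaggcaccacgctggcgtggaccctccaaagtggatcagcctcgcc
Atp6v1a, chr16:44139210-44139509, minus strand: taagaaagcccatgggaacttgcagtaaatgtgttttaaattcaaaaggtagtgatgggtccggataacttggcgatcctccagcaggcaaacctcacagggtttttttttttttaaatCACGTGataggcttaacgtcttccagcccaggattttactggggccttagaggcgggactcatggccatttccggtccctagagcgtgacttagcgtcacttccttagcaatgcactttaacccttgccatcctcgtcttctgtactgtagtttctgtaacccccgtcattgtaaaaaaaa
Gaa, chr11:119267713-119268012, plus strand: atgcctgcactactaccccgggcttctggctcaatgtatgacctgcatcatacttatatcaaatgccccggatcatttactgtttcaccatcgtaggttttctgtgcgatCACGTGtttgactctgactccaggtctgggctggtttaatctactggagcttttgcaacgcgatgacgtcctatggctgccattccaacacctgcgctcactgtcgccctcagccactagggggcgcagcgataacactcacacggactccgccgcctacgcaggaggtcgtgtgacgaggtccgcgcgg
Ctsz, chr2:174438990-174439289, minus strand: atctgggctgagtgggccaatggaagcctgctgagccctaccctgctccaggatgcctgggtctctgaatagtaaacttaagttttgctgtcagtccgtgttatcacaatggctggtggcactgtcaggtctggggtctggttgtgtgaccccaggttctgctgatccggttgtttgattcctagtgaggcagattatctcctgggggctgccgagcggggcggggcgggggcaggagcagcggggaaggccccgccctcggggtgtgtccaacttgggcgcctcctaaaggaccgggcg

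Among the 10 proteases, 5 rose and 1 fell with MOTS-c, and 5 rose and 2 fell with casting alone. Ctsl, which encodes the cysteine protease cathepsin L (chromosome 13, 64359337 to 64370890, GRCm38), had 90.6 to 497 scaled TPM in casted with MOTS-c libraries (median 332), 175 to 845 in casted libraries (median 347) and 91.4 to 100.3 in uncasted libraries (median 97.2). All 8 casted libraries and 7 of the 8 with MOTS-c were above the narrow uncasted range. Its log2 change was 1.58 in casted with MOTS-c against uncasted muscle (SE 0.28, limma adjusted p = 5.03e-05) and 1.87 in casted against uncasted muscle (SE 0.28, limma adjusted p = 4.2e-06). Without MOTS-c replicate 5 the first of these was 1.82. With only casted replicates 1 to 4 the change with casting was 1.33, and with only replicates 5 to 8 it was 2.41.

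Ctsz, the gene of the carboxypeptidase cathepsin Z (chromosome 2, 174427493 to 174439039), had 22.4 to 46.9 scaled TPM in casted with MOTS-c libraries (median 36.6), 31.5 to 45.9 in casted libraries (median 39.2) and 16 to 22.4 in uncasted libraries (median 19.2). Both casted groups lay above the uncasted group without overlap, MOTS-c replicate 5 only just. The log2 changes against uncasted muscle were 0.86 (SE 0.11) with MOTS-c, or 0.94 without replicate 5, and 1.0 (SE 0.11, limma adjusted p = 2.39e-08) without. Ctsd, which encodes the aspartic protease cathepsin D (chromosome 7, 142375911 to 142388038), had 262 to 514 scaled TPM in casted with MOTS-c libraries (median 443), 373 to 569.9 in casted libraries (median 497) and 278 to 344 in uncasted libraries (median 319.7). Every casted library was above every uncasted one, and of the libraries with MOTS-c only replicate 5 was not. Its log2 changes were 0.40 with MOTS-c, or 0.50 without replicate 5, and 0.61 (SE 0.10, limma adjusted p = 1.71e-05) with casting alone.

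Lgmn, the gene of the asparaginyl endopeptidase legumain, rose by 0.62 with MOTS-c and 0.40 with casting alone, and Ctsf, the gene of the cysteine protease cathepsin F, by 0.34 in each. With casting alone Lgmn did not pass when only casted replicates 5 to 8 were kept (0.34), and Ctsf when only 1 to 4 were kept (0.17). On the scaled values Ctsb and Ctsa went the other way. Ctsb, the gene of cathepsin B, another cysteine protease and the most abundant protease transcript after Ctsd in uncasted muscle, had 144 to 179 scaled TPM in casted with MOTS-c libraries (median 166), 122 to 167 in casted libraries (median 145) and 147 to 178 in uncasted libraries (median 166). The groups overlapped. Ctsb was 0.19 lower on the log2 scale in casted than in uncasted muscle (-0.19, limma adjusted p = 0.0198), but 0.33 higher on the deposited scale. The call was lost without casted replicate 6 (-0.15, limma adjusted p = 0.0509; range over 33 alternatives 0.00252 to 0.116). In casted with MOTS-c against uncasted muscle its change was 0.00, with a 95% confidence interval from -0.14 to 0.13.

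Ctsa encodes cathepsin A, a carboxypeptidase that also protects beta-galactosidase in the lysosome. It had 31.3 to 37.2 scaled TPM in casted with MOTS-c libraries (median 35.3), 31.4 to 40.4 in casted libraries (median 35.4) and 38.2 to 41.8 in uncasted libraries (median 40.2). All libraries with MOTS-c and 7 of 8 casted libraries were below the uncasted range. The log2 changes were -0.19 with MOTS-c and -0.17 with casting alone (limma adjusted p = 0.00363 and 0.00903), against 0.23 and 0.34 on the deposited scale; with only casted replicates 5 to 8 kept the casting call was lost (-0.13). The aminopeptidases encoded by Ctsc and Ctsh and the tripeptidyl peptidase encoded by Tpp1 passed in neither comparison, with log2 changes between -0.20 and 0.32. Without casted replicate 2, Ctsc was lower with casting alone and passed (-0.26), but it was 0.30 higher on the deposited scale. Ctsh passed with MOTS-c in 13 of 33 alternative fits, among them those without replicate 1 of the uncasted group (0.37), replicates 1, 2, 6 or 8 of the casted group (0.32 each) and replicates 5 or 8 of the MOTS-c group (0.35 and 0.38). With casting alone Ctsh passed in 1 of 33, where it was lower with only casted replicates 5 to 8 kept (-0.48, limma adjusted p = 0.00466).

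**Figure D2:**
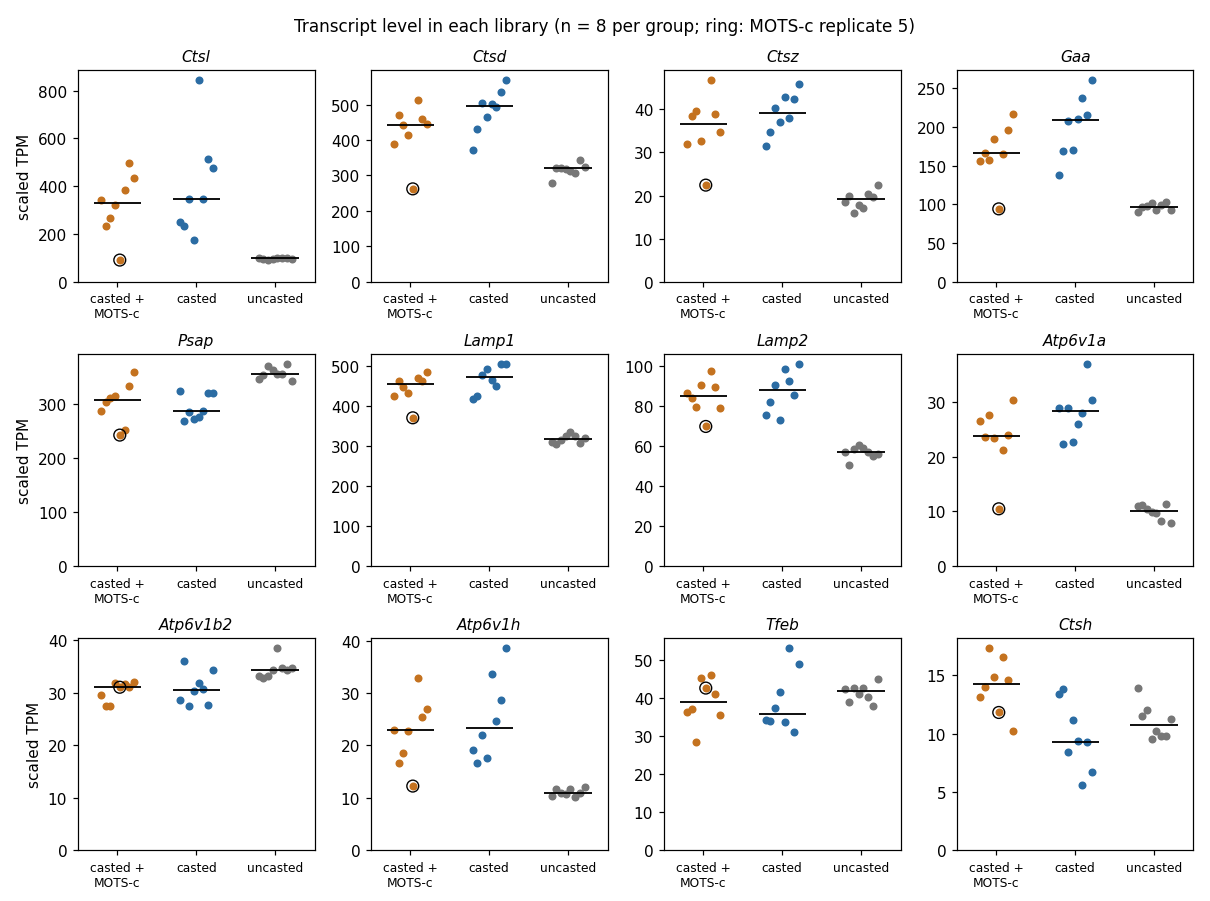
Scaled TPM (y axis, from 0) of 12 of the genes in each library, in casted with MOTS-c, casted and uncasted muscle (x axis, 8 libraries each); bars are group medians, and rings mark replicate 5 of the group with MOTS-c. Ctsl ranges from 175 to 845 in casted libraries and from 91.4 to 100.3 in uncasted libraries, while the 3 groups overlap for Tfeb and Ctsh.

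Of the other 8 hydrolases and activators, 2 rose and 1 fell with MOTS-c, and 2 rose and 2 fell with casting alone. Gaa, which encodes the acid alpha-glucosidase that degrades lysosomal glycogen (chromosome 11, 119267887 to 119285454), had 94.2 to 217 scaled TPM in casted with MOTS-c libraries (median 166), 138 to 261 in casted libraries (median 209) and 89.6 to 103 in uncasted libraries (median 97.2). Casted libraries did not overlap the uncasted ones, and with MOTS-c only replicate 5 did. Its log2 changes against uncasted muscle were 0.75 (SE 0.13, limma adjusted p = 3.23e-05) with MOTS-c, or 0.86 without replicate 5, and 1.02 (SE 0.13, limma adjusted p = 3.2e-07) with casting alone. With only casted replicates 1 to 4 the change with casting alone was 0.80, and with only 5 to 8 it was 1.24. Hexa, the gene of the hexosaminidase alpha subunit, which acts on gangliosides, had 30.9 to 58.5 scaled TPM in casted with MOTS-c libraries (median 47.5), 36.2 to 61.7 in casted libraries (median 47.2) and 28.3 to 31.0 in uncasted libraries (median 30.0). It rose by 0.59 with MOTS-c (0.67 without replicate 5) and by 0.67 with casting alone, and only MOTS-c replicate 5 lay within the uncasted range.

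Psap, the gene of prosaposin, which is cut into activators of sphingolipid hydrolases, had the highest level of the 40 genes in uncasted muscle. It had 242 to 358 scaled TPM in casted with MOTS-c libraries (median 307), 268 to 323 in casted libraries (median 286) and 342 to 373 in uncasted libraries (median 355). The casted libraries were all below the uncasted ones, and with MOTS-c 1 library, replicate 8, reached the uncasted range. Its log2 changes were -0.26 with MOTS-c and -0.28 with casting alone (limma adjusted p = 0.00248 and 0.000984), against 0.18 and 0.23 on the deposited scale. Lipa, the gene of lysosomal acid lipase, had 4.08 to 7.95 scaled TPM in casted with MOTS-c libraries (median 5.56), 2.83 to 5.65 in casted libraries (median 4.46) and 4.84 to 6.96 in uncasted libraries (median 6.14). It was lower with casting alone (-0.34, limma adjusted p = 0.00832) but 0.09 higher on the deposited scale, and it did not pass with MOTS-c (-0.09) or with only casted replicates 1 to 4 kept (-0.26). Asah1, Gla, Glb1 and Gusb, genes of acid ceramidase, alpha-galactosidase, beta-galactosidase and beta-glucuronidase, passed in neither comparison, with log2 changes from -0.09 to 0.20; Glb1 passed with MOTS-c without replicate 8 of that group (0.27).

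Of the 6 membrane proteins and sterol carriers, 5 rose and none fell with MOTS-c, and 3 rose and none fell with casting alone. Lamp1 and Lamp2 encode the most abundant glycoproteins of the lysosomal membrane. Lamp1 (chromosome 8, 13159161 to 13175338) had 369.8 to 484 scaled TPM in casted with MOTS-c libraries (median 455), 418 to 504 in casted libraries (median 471) and 303 to 335 in uncasted libraries (median 317). Lamp2 (chromosome X, 38401357 to 38456454) had 69.8 to 97.5 scaled TPM with MOTS-c (median 85.3), 73.3 to 101 in casted libraries (median 88.2) and 50.8 to 60.6 in uncasted libraries (median 57.2). For both genes all 16 casted libraries, with or without MOTS-c, were above all uncasted ones. The log2 changes of Lamp1 were 0.48 with MOTS-c and 0.55 without (SE 0.06 each, limma adjusted p = 1.83e-07 and 1.18e-08), and those of Lamp2 were 0.56 and 0.61 (SE 0.07 each).

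Scarb2, which encodes the abundant lysosomal membrane protein LIMP-2, rose by 0.26 with MOTS-c and by 0.28 with casting alone. The cholesterol export genes differed from it. Npc1 varied widely, with 30.7 to 102 scaled TPM in casted with MOTS-c libraries (median 59.5), 28.1 to 83.5 in casted libraries (median 51.6) and 23.7 to 42.8 in uncasted libraries (median 39.2). It passed in casted with MOTS-c against uncasted muscle (0.61, limma adjusted p = 0.0318) but not in casted against uncasted muscle (0.47, limma adjusted p = 0.084); the difference between the casted groups was 0.13, with a 95% confidence interval from -0.34 to 0.61. The casting change was 0.05 with only casted replicates 1 to 4 and 0.90 with only 5 to 8. The call with MOTS-c was lost in 8 of 33 alternative fits (limma adjusted p from 0.000416 to 0.0806 over the 33): without filter on low values, without replicate 1, 2 or 5 of the uncasted group (0.53, 0.57 and 0.58), and without replicate 1, 4, 6 or 7 of the MOTS-c group (0.57, 0.56, 0.48 and 0.55). The call of casting was gained without casted replicate 1 or 2 (0.57 and 0.59).

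Npc2, the gene of the soluble cholesterol carrier of the lumen, had 13.8 to 16.9 scaled TPM with MOTS-c, 12.2 to 15.1 in casted libraries and 12.6 to 14.3 in uncasted libraries, and it passed with MOTS-c (0.17, limma adjusted p = 0.0088) but not with casting alone (0.04). Mcoln1, which encodes the lysosomal calcium channel TRPML1, had 19.6 to 23.3 scaled TPM with MOTS-c (median 21.6), 18.8 to 26.5 in casted libraries (median 20.8) and 19.0 to 23.6 in uncasted libraries (median 21.8). The 3 groups overlapped, with log2 changes of 0.00 with MOTS-c and -0.02 with casting alone, neither of which passed.

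The transcripts of the transcription factors did not pass in any comparison. Tfeb (chromosome 17, 47737030 to 47792419) had 28.5 to 46.0 scaled TPM in casted with MOTS-c libraries (median 39.0), 31.2 to 53.2 in casted libraries (median 35.8) and 37.9 to 44.9 in uncasted libraries (median 41.9). Its log2 change was -0.10 in each comparison with uncasted muscle, with a 95% confidence interval from -0.30 to 0.11, and on the deposited scale it was 0.33 with MOTS-c and 0.41 with casting alone. Tfe3 had 5.20 to 8.01 scaled TPM with MOTS-c (median 6.55), 5.06 to 8.13 in casted libraries (median 7.32) and 3.92 to 7.65 in uncasted libraries (median 5.90), and log2 changes of 0.14 with MOTS-c and 0.22 (limma adjusted p = 0.109) with casting alone. Without casted replicate 4 the Tfe3 change with casting was 0.27 and passed (limma adjusted p = 0.0455; range over 33 alternatives 0.000101 to 0.424). TFEB and TFE3 are known to be controlled largely by phosphorylation and by entry into the nucleus, which RNA levels do not measure.

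Of the 14 V-ATPase genes, 9 rose and 2 fell with MOTS-c, and 10 rose and 2 fell with casting alone; the falls were positive changes on the deposited scale. Within the catalytic V1 sector, 5 of 8 rose and 1 fell with MOTS-c, and 6 rose and 1 fell with casting alone. Atp6v1a, the gene of the catalytic A subunit (chromosome 16, 44085402 to 44139705), had 10.4 to 30.4 scaled TPM in casted with MOTS-c libraries (median 23.7), 22.4 to 36.9 in casted libraries (median 28.4) and 7.81 to 11.2 in uncasted libraries (median 10.1). Its lowest casted library was at 22.4, and among the libraries with MOTS-c only replicate 5, at 10.4, was within the uncasted range. The log2 changes were 1.12 with MOTS-c (SE 0.14, limma adjusted p = 8.67e-07), or 1.27 without replicate 5, and 1.40 with casting alone (SE 0.14, limma adjusted p = 1.82e-08). Atp6v1h, the gene of the H subunit, which couples the sectors and blocks ATP hydrolysis by free V1 (chromosome 1, 5070018 to 5162529), had 12.2 to 32.8 scaled TPM with MOTS-c (median 22.9), 16.6 to 38.5 in casted libraries (median 23.4) and 10.2 to 12.1 in uncasted libraries (median 10.9). It rose by 0.90 with MOTS-c (SE 0.16), or 1.01 without replicate 5, and by 1.06 with casting alone (SE 0.16, limma adjusted p = 5.9e-06). With only casted replicates 1 to 4 the change with casting alone was 0.72, and with only 5 to 8 it was 1.41; against casted muscle the change with MOTS-c was 0.19 and -0.51 in these fits and passed in neither.

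Atp6v1b2, the gene of the B subunit that alternates with the A subunit in the catalytic ring, went the other way. It had 27.4 to 32.1 scaled TPM with MOTS-c (median 31.0), 27.4 to 36.0 in casted libraries (median 30.5) and 32.8 to 38.4 in uncasted libraries (median 34.3). All libraries with MOTS-c were below all uncasted ones. The log2 changes were -0.18 with MOTS-c and -0.16 with casting alone (limma adjusted p = 0.00949 and 0.0199), against 0.24 and 0.34 on the deposited scale. With only casted replicates 1 to 4 kept the casting call was lost (-0.17), and likewise with only 5 to 8 kept (-0.15). Atp6v1f, the gene of the F subunit of the rotor, had 53.1 to 71.3 scaled TPM with MOTS-c (median 62.5), 62.4 to 89.0 in casted libraries (median 69.8) and 55.7 to 61.3 in uncasted libraries (median 57.0). Its change was 0.09 with MOTS-c, which did not pass, and 0.32 with casting alone (limma adjusted p = 0.000339).

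The other V1 subunit genes encode parts of the stalks and rotor that link the sectors, and none of their changes exceeded 0.28. With MOTS-c, Atp6v1c1 (0.16), Atp6v1d (0.20) and Atp6v1e1 (0.18) rose, and Atp6v1g1 did not pass (0.21). With casting alone, Atp6v1c1 (0.23), Atp6v1d (0.28) and Atp6v1g1 (0.27) rose, and Atp6v1e1 did not pass (0.13). The Atp6v1d call was lost when casted replicates 5 to 8 were left out (0.21), and the Atp6v1g1 call when 1 to 4 were (0.23). The Atp6v1e1 call with MOTS-c was lost without MOTS-c replicate 7 (0.15), and its change with casting alone passed without casted replicate 1, 5 or 6 (0.15, 0.16 and 0.15). Atp6v1g1 passed with MOTS-c without replicate 4 or 5 of that group (0.24 and 0.28) or without uncasted replicate 8 (0.25).

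In the V0 sector 3 of 4 genes rose and 1, Atp6v0b, fell on the scaled values in each comparison with uncasted muscle. Atp6v0e, the gene of the small e subunit, had 24.2 to 49.2 scaled TPM with MOTS-c (median 33.1), 27.4 to 45.7 in casted libraries (median 38.3) and 18.1 to 23.9 in uncasted libraries (median 20.6), with no overlap between the uncasted libraries and the others. It rose by 0.66 (SE 0.11) with MOTS-c and 0.82 (SE 0.11, limma adjusted p = 6.77e-07) with casting alone. Atp6v0d1, the gene of the d subunit that joins the sectors, had 23.7 to 39.4 scaled TPM with MOTS-c (median 35.0), 32.0 to 43.9 in casted libraries (median 38.5) and 21.6 to 28.2 in uncasted libraries (median 26.3), and rose by 0.38 with MOTS-c (0.45 without replicate 5) and by 0.55 with casting alone; only MOTS-c replicate 5 was within the uncasted range. Atp6v0c and Atp6v0b encode proteolipids of the same proton-carrying ring, and on the scaled values they changed in opposite directions. Atp6v0c had 95 to 137 scaled TPM with MOTS-c (median 117), 100.3 to 131 in casted libraries (median 120.4) and 95 to 118 in uncasted libraries (median 101), and rose by 0.17 with MOTS-c and by 0.22 with casting alone (0.18, not passed, with only casted replicates 1 to 4 kept).

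Atp6v0b had 46.5 to 58.0 scaled TPM with MOTS-c (median 49.7), 47.0 to 63.2 in casted libraries (median 54.5) and 58.9 to 72.1 in uncasted libraries (median 62.2). All libraries with MOTS-c were below all uncasted ones. The changes were -0.31 with MOTS-c and -0.22 with casting alone (limma adjusted p = 0.000157 and 0.00366), against 0.12 and 0.29 on the deposited scale. The Atp6v0c call with MOTS-c was lost in 9 of 33 alternative fits (limma adjusted p from 1.96e-06 to 0.0844 over the 33), namely without filter on low values and without replicate 1, 2, 3 or 5 of the uncasted group or 3, 6, 7 or 8 of the MOTS-c group, with changes from 0.14 to 0.17 in these.

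The accessory proteins were split as well. Atp6ap2, the gene of the prorenin receptor, which takes part in pump assembly (chromosome X, 12587801 to 12617049), had 11.2 to 22.9 scaled TPM with MOTS-c (median 19.3), 16.5 to 24.6 in casted libraries (median 18.9) and 9.48 to 11.7 in uncasted libraries (median 10.4). It rose by 0.75 with MOTS-c (SE 0.10), or 0.85 without replicate 5, and by 0.80 with casting alone (SE 0.10, limma adjusted p = 3.4e-07), and only MOTS-c replicate 5 was within the uncasted range. Atp6ap1, the gene of another accessory protein of the pump, had 58.8 to 75.6 scaled TPM with MOTS-c, 61.7 to 69.9 in casted libraries and 64.6 to 75.1 in uncasted libraries, and did not pass in either comparison.

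**Figure D3:**
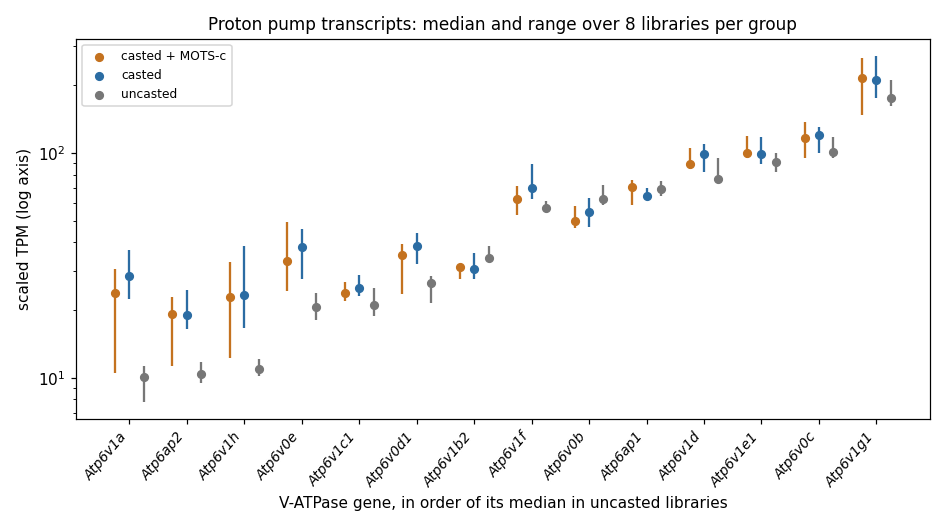
Scaled TPM (y axis, log scale) of the 14 V-ATPase genes (x axis, in order of their uncasted median) in casted with MOTS-c, casted and uncasted libraries; points are medians and lines run from the lowest to the highest of 8 libraries. Atp6v1a, Atp6ap2 and Atp6v1h, the 3 lowest in uncasted muscle, are each higher in casted muscle, and Atp6v0b and Atp6v1b2 lie lower there on this scale but not on the deposited one.

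The pump genes with the lowest levels per transcript in uncasted muscle were Atp6v1a, Atp6ap2 and Atp6v1h, at means of 9.90, 10.6 and 11 scaled TPM. Atp6v1a, Atp6v1h, Atp6v0e and Atp6ap2 had, in that order, the largest rises of the 14 with casting alone. Ratios within a library do not depend on the scaling between libraries. They were chosen after the values were seen and are given with no test. The ratio of Atp6v1a to Atp6v1b2 was 0.337 to 1.01 in casted with MOTS-c libraries (median 0.814), 0.621 to 1.34 in casted libraries (median 0.899) and 0.225 to 0.338 in uncasted libraries (median 0.30). The ratio of Ctsl to Ctsb was 0.578 to 3.03 with MOTS-c (median 1.98), 1.36 to 5.05 in casted libraries (median 2.70) and 0.544 to 0.642 in uncasted libraries (median 0.593). For each of these ratios the casted libraries did not overlap the uncasted ones, and the lowest library with MOTS-c was within the uncasted range. The ratio of Atp6v0d1 to Atp6v0b was 0.504 to 0.762 with MOTS-c, 0.612 to 0.825 in casted libraries and 0.343 to 0.460 in uncasted libraries. The ratio of Ctsd to Psap was 1.08 to 2.04 with MOTS-c, 1.15 to 1.81 in casted libraries and 0.803 to 0.944 in uncasted libraries. Both casted groups were above the uncasted group without overlap for these.

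Set side by side, the role groups had these medians and ranges. With MOTS-c the median log2 change was 0.20 for the 18 hydrolases and activators (from -0.26 to 1.58), 0.37 for the 6 membrane proteins and sterol carriers (from 0.00 to 0.61) and 0.19 for the 14 pump genes (from -0.31 to 1.12). With casting alone it was 0.04 for the hydrolases and activators (from -0.34 to 1.87), 0.37 for the membrane proteins and sterol carriers (from -0.02 to 0.61) and 0.28 for the pump genes (from -0.22 to 1.40). Summed over its genes, the hydrolase group had 1092 to 1962 scaled TPM in casted with MOTS-c libraries, 1468 to 2296 in casted libraries and 1219 to 1308 in uncasted libraries; Ctsl, Ctsd and Gaa had its largest differences in mean level with casting alone. The membrane group summed to 562 to 752 with MOTS-c, 614 to 768 in casted libraries and 463 to 506 in uncasted libraries. The pump genes summed to 731 to 1030.4 with MOTS-c, 862 to 1052 in casted libraries and 738 to 863 in uncasted libraries. The casted libraries were above all uncasted ones in the hydrolase and membrane sums and just overlapped them in the pump sum. Differences between the role groups were not tested.

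In casted with MOTS-c against casted muscle none of the 40 genes passed, higher or lower, where 0.0136% of all genes were higher and 0.00681% lower, 0.0204% in all. None of the 40 had groups that did not overlap, where 0.0408% of all genes lay wholly above and 0.0340% wholly below. Fits of the 2 casted groups alone, with other scalings and with a replicate block also called none of the 40. The median log2 change was -0.03 over the 40 genes and 0.00 over all genes. Unadjusted p-values were under 0.05 for 7 of the 40 genes (17.5%) and for 1986 of all 14690 (13.5%). The 7 were Ctsb (0.18), Ctsc (0.31), Ctsh (0.53), Lipa (0.25) and Npc2 (0.13), all higher with MOTS-c, and Gaa (-0.27) and Atp6v1f (-0.23), lower with MOTS-c. Among the pump genes 12 of 14 had a change below 0, with a median of -0.07, and among the hydrolases 12 of 18 had one above 0, with a median of 0.02. These genes come from the same libraries, and the share of all genes on each side of 0 was not counted. No difference between roles is read from the signs. The median of the 40 genes was -0.09 with only casted replicates 5 to 8 kept and 0.02 with only 1 to 4. Over the 40 genes the 95% confidence intervals, not adjusted for the number of genes, lay between -0.86 and 0.81. The widest was that of Ctsl (from -0.86 to 0.29). Those of the 7 genes with unadjusted p under 0.05 did not hold 0. Although no gene passed, differences within a gene's own interval are not excluded. For Lamp1 the interval was narrow, from -0.19 to 0.04.

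Ctsh, the gene of the aminopeptidase cathepsin H, had the largest difference between the casted groups. It had 10.2 to 17.3 scaled TPM in casted with MOTS-c libraries (median 14.3), 5.56 to 13.8 in casted libraries (median 9.29) and 9.50 to 14 in uncasted libraries (median 10.7). All 8 libraries with MOTS-c were above the casted mean of 9.71, but the groups overlapped. The log2 change was 0.53 (95% confidence interval 0.24 to 0.81, limma adjusted p = 0.141), and the adjusted p over 33 alternative fits ran from 0.00184 to 0.97. It passed in 3 of them, without casted replicate 1 (0.59), with libraries weighted by their spread (0.61) and with only casted replicates 5 to 8 kept (0.80). In that last fit Ctsh also passed as lower in casted than in uncasted muscle (-0.48). In the fit with only casted replicates 5 to 8, Ctsc (0.45) was also higher with MOTS-c, and Gaa (-0.49), Atp6v0e (-0.37) and Atp6v1f (-0.30) were lower, where 4.62% of all genes were higher and 5.70% lower. With only replicates 1 to 4 kept, no gene of the 40 passed.

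**Figure D4:**
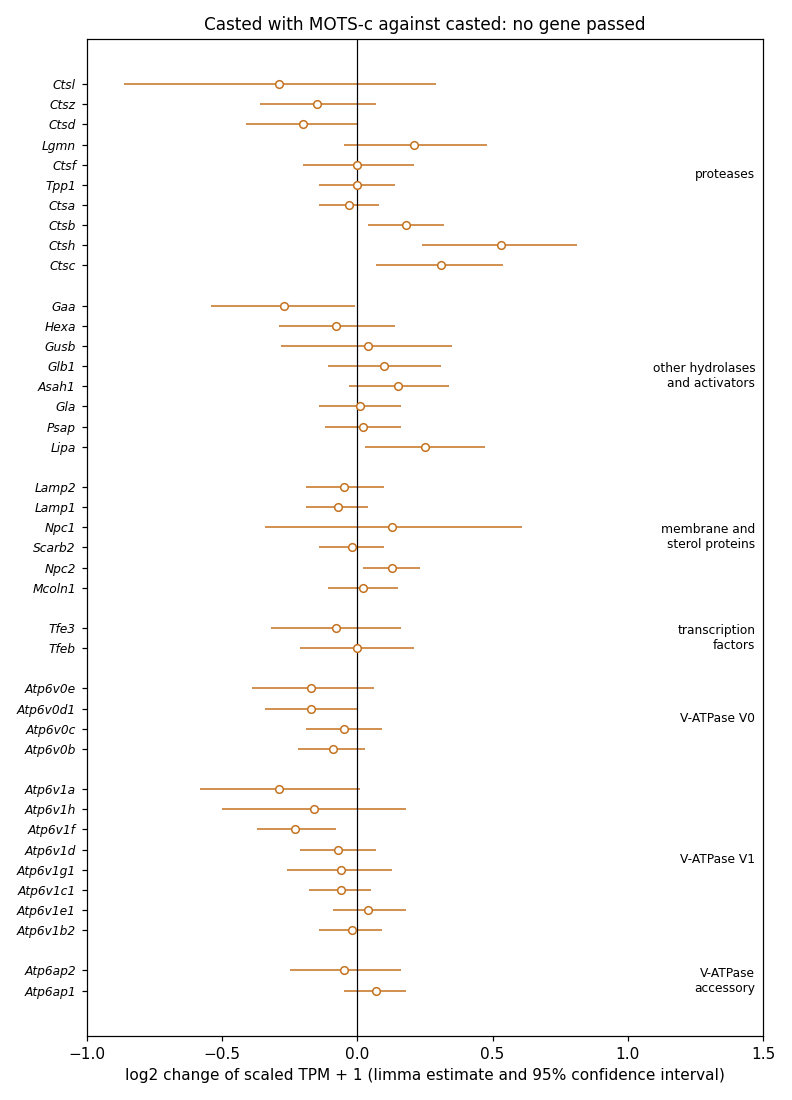
Log2 change (x axis) of each of the 40 genes (y axis, grouped by role) in casted with MOTS-c against casted libraries, with 95% confidence intervals from limma. No gene passed at an adjusted p under 0.05. Ctsh is at 0.53 and Ctsl at -0.29.

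Macrophages are rich in lysosomes, so their markers were read beside these genes. The 14 markers summed to 126 to 306 scaled TPM in casted with MOTS-c libraries (median 224), 102 to 229.7 in casted libraries (median 148) and 94.2 to 122 in uncasted libraries (median 103). Of the 13 tested (Cx3cr1 was too low), 12 rose and none fell in casted with MOTS-c against uncasted muscle. In casted against uncasted muscle 8 rose and 1, Mertk, fell. On the deposited scale 13 rose with MOTS-c and 12 with casting alone, where Mertk was at 0.01 and did not pass. In casted with MOTS-c against casted muscle none passed and all 13 had a positive change, with a median of 0.41. That sign was not particular to macrophages. All tested muscle fibre (7), endothelial (7), fibroblast (6) and Schwann cell (4) markers also had positive changes there, with medians of 0.11, 0.13, 0.34 and 0.22. Lyz2, the largest part of the sum, had 51.8 to 153 scaled TPM with MOTS-c, 40.8 to 98.6 in casted libraries and 37.3 to 49.9 in uncasted libraries. None of the markers was at 0 throughout a group.

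Casted replicates 6 and 8 had marker sums of 102 and 106, within the uncasted range. Cd68, also a macrophage marker, is not in that sum. It had 15.7 to 50.5 scaled TPM over the casted libraries and 2.41 to 6.29 in uncasted libraries. For Cd68, therefore, casted replicates 6 and 8 were above the uncasted range. In these libraries Ctsl was at 348 and 475 scaled TPM, Gaa at 237.5 and 261, Atp6v1a at 27.9 and 30.3 and Lamp1 at 448 and 504. All were above the uncasted range. Every casted library was above it for these genes, so this does not set replicates 6 and 8 apart. Lgmn, at 22.1 and 25.5, was within the uncasted range in replicates 6 and 8, and Ctsh, at 5.56 and 6.67, was the lowest of all libraries. In casted replicates 1 and 2, which had the highest sums of their group, 203 and 229.7, Ctsh was also highest of its group, at 13.4 and 13.8. Lgmn was at 31.3 and 41.1 in them, but its highest casted value, 44.7, was in replicate 5, with a sum of 155. With MOTS-c the highest Lgmn and Ctsh values, 47.1 and 17.3, were in replicate 3, which had the highest marker sum of all, 306. The part of macrophage RNA in the Lgmn, Ctsh and other differences between groups was not tested.

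**Figure D5:**
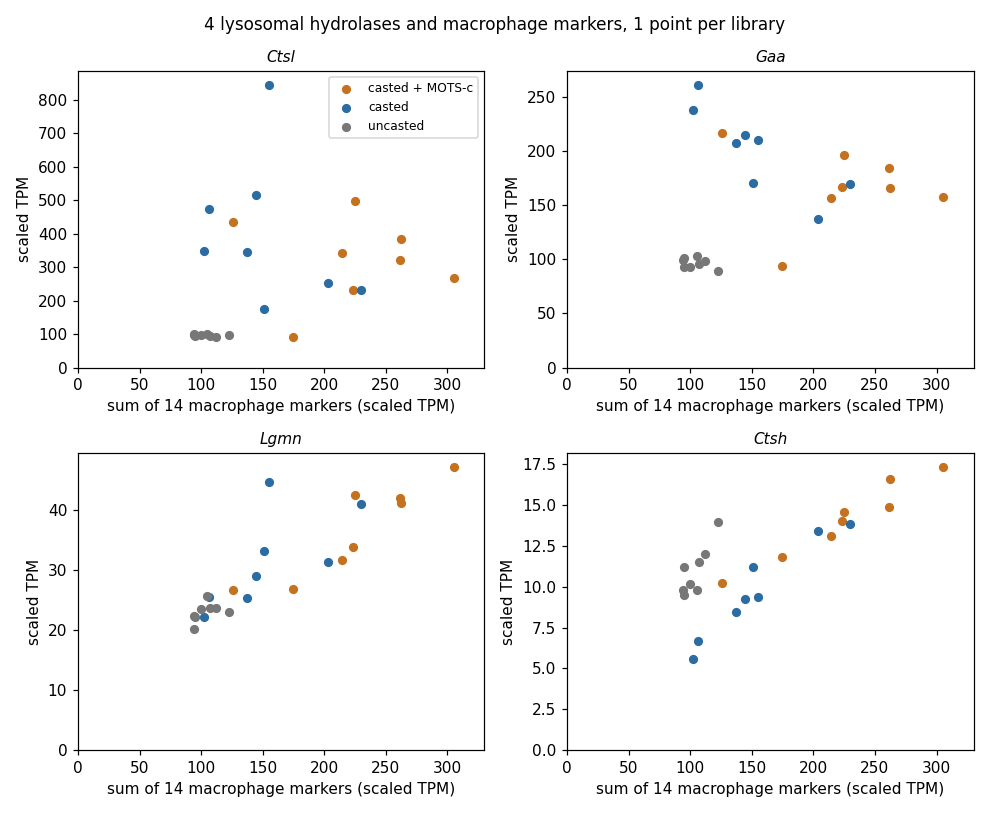
Scaled TPM (y axes, from 0) of Ctsl, Gaa, Lgmn and Ctsh against the sum of 14 macrophage markers in scaled TPM (x axes), 1 point per library, with casted with MOTS-c, casted and uncasted libraries in colour. Casted replicates 6 and 8, at sums of 102 and 106, have Ctsl at 348 and 475 and Ctsh at 5.56 and 6.67.

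Other genes of the same pathway were read from 5 lists of 90 genes, of which 82 were tested. With MOTS-c 30 rose and 11 fell (median 0.10), with casting alone 30 rose and 13 fell (median 0.09), beside the 26.0% up and 24.7% down with MOTS-c and the 28.7% up and 27.7% down with casting alone over all genes. On the deposited scale 69 of the 82 rose and 2 fell with MOTS-c, and 68 rose and 1 fell with casting alone. Over all genes tested on that scale, 60% rose and 6.94% fell with MOTS-c, and 62.2% rose and 7.43% fell with casting alone. None of the 82 passed in casted with MOTS-c against casted muscle, where 36 changes were above 0 and 46 below. Of 28 other hydrolases and activators 10 rose and 1 fell with MOTS-c, and 8 rose and 4 fell with casting alone. Among them, Ctss, the gene of a cysteine protease of antigen-presenting cells, rose by 1.78 with MOTS-c and by 1.10 with casting alone. Of 18 tested membrane proteins 8 rose and 3 fell with MOTS-c, and 9 rose and 3 fell with casting alone. Cd68, the gene of a lysosomal glycoprotein that is also a macrophage marker, rose by 2.37 with MOTS-c and by 2.54 with casting alone, and Cd63, the gene of a tetraspanin of late endosomes and lysosomes, by 0.90 and 1.21. On the deposited scale 23 of the 28 hydrolases and activators rose and none fell, and 15 of the 18 membrane proteins rose and 1 fell, in each comparison.

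Of 5 tested V-ATPase isoforms 1 rose and 1 fell with MOTS-c, and 1 rose and none fell with casting alone; on the deposited scale 4 rose and none fell in each. Atp6v0a1, the gene of the a1 subunit, rose by 0.48 with MOTS-c and by 0.68 with casting alone, while Tcirg1, the gene of the a3 subunit known from osteoclasts and macrophages, passed in neither (0.12 and -0.13). Of the 15 genes that sort enzymes to lysosomes 7 rose and none fell, in each comparison with uncasted muscle, and on the deposited scale 15 rose with MOTS-c and 14 with casting alone. Gnptab, the gene of the enzyme that begins the mannose 6-phosphate tag, rose by 0.59 with MOTS-c and 0.76 with casting alone, and Igf2r, the gene of a receptor of that tag, by 0.45 and 0.72. Of 16 tested genes of the TFEB family and of mTORC1 control at the lysosome 4 rose and 6 fell with MOTS-c, and 5 rose and 6 fell with casting alone, but on the deposited scale 12 rose in each, 1 fell with MOTS-c and none fell with casting alone. Mtor, the gene of the kinase of mTORC1, rose by 0.60 with MOTS-c and 0.83 with casting alone. Rragd, the gene of a Rag GTPase, had 63.3 to 91.1 scaled TPM with MOTS-c, 71.1 to 80.9 in casted libraries and 99.7 to 129 in uncasted libraries, and log2 changes of -0.67 with MOTS-c and -0.58 with casting alone, or -0.23 and -0.07 on the deposited scale, where the change with casting alone did not pass.

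Some values carry limits of the counting. The sources used here do not say whether reads were counted by strand, and exons of Ctsa, Ctsb, Ctsl, Ctsz, Hexa, Lamp1, Npc1, Atp6v0b, Atp6v1e1 and Atp6v1h overlap exons of a gene on the other strand, by 774 bases with Fdft1 in Ctsb and by 1742 bases with an antisense gene in Ctsl. Near-copies were found for Atp6ap2, Atp6v0c, Atp6v1g1, Ctsd and Ctsl. Those of Ctsd and Ctsl are overlapping genes on the same strand, which share 808 and 395 exonic bases with them. Glb1 shares 165 with Tmppe on its strand. The log2 ratio of casted to uncasted means of each gene summed with its near-copies was, in the order above, 0.86, 0.22, 0.28, 0.63 and 2.04. This is a ratio of mean levels, unlike the limma changes given earlier. The Ctsl copy was at 0 in every library, and the Atp6ap2 copy in all casted and uncasted ones. For Ctsl and Atp6ap2 the ratio is thus that of the gene alone.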

How the data were processed

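TPM from RNA sequencing of 24 gastrocnemius libraries were analysed, 8 in each of 3 groups. Each deposited table gives TPM per Ensembl gene for 1 library; per the submitters' processing notes the authors used FastQC, STAR, RSEM and DESeq2 with the build GRCm38.p6, with no other versions named. TRIzol and a column kit were used for extraction and polyadenylated RNA was captured, per the labels' protocols. TPM sum to a fixed total, so depth is unknown and no counting intervals can be given. Over the genes tested, at most 1.34% of values were exactly equal between any 2 libraries, so none was treated as a repeat.

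Symbols and 1-based coordinates came from a GENCODE annotation of GRCm38, and 55227 identifiers received a symbol. A gene was tested if 8 or more libraries had a TPM of 0.5 or above. TPM were scaled by an unweighted trimmed mean of log ratios over these genes (trimming a fraction of 0.3 of ratios and 0.05 of mean levels at each end). limma 3.58.1 in R 4.3.3, with a mean-variance trend and no covariates, was fitted to log2(scaled TPM + 1) in 1 model of 3 groups; this scale understates changes of low genes. P-values were two-sided and adjusted by Benjamini-Hochberg over all 14690 genes within each of 3 comparisons. The procedure was run on simulated data in which only a small part of the genes changed. Far more genes changed here, so that run does not test the scaling between libraries. Promoter windows came from RefSeq tables (GRCm38.p6). Near-copies were transcripts aligned by blastn 2.17.0 with at least 90% identity over 80% of the copy and 200 bases. Figures were drawn with matplotlib 3.10.9.

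The 40 genes, the 5 further lists, the marker lists and the tests were chosen with earlier results of these data known, so the lists are not independent evidence. All 40 genes are accounted for. Full values are given for the members of each role class with the largest changes that passed with casting, for those that passed against most of their class, and for 10 genes always shown; from the further lists the rule took the 2 largest changes per list and Ctss, Cd63, Cd68 and Tcirg1. A gene that this rule takes is not reported here. Values of other members, such as Lgmn, Npc1, Npc2, Atp6ap1 and Ctsh, were added after they were seen. Alternatives were the deposited scale, median-of-ratios scaling, a pseudocount of 0.1, no filter, 2-group fits, a replicate block, limma array weights, casted replicates 1 to 4 or 5 to 8 left out, and each of the 24 libraries left out in turn, 33 fits in all.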

Additional observations from a re-analysis of the deposited data

Results flagged for a closer look

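In 9 of the 120 sets of 8 values, 1 for each gene and group, the highest or lowest library lay far from the others, with a gap to its neighbour, as a share of the group's range, above Dixon's 95% critical value for 8 libraries. Chance gives about 1 in 20. Of these, 2 were in replicate 5 of the casted with MOTS-c group, the library with the lowest value of its group in 19 of the 40 genes. They were Atp6v1a, at 10.4 scaled TPM with the next library at 21.2, and Atp6v0d1, at 23.7 with the next at 32.6.

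The other low value was Atp6v0c in casted replicate 1, at 100.3 scaled TPM with the next at 117. The high values were Atp6v0e in casted with MOTS-c replicate 6, at 49.2, Gusb in casted replicate 2, at 15.3 with the next at 7.51, Gla in casted replicate 4, at 2.28, Atp6v0c in uncasted replicate 8, at 118, Atp6v1b2 in uncasted replicate 5, at 38.4, and Ctsc in uncasted replicate 1, at 33.0. Casted replicate 2 also had the highest macrophage marker sum of its group, 229.7 scaled TPM, and the part of this in its Gusb level was not tested.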

How the results depend on the processing

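Under 33 alternative fits, 15 of the 20 rises with casting and 18 of the 21 rises with MOTS-c kept their direction and call in each; the exceptions were Atp6v0c, Atp6v1d, Atp6v1g1, Ctsf and Lgmn with casting, and Atp6v0c, Atp6v1e1 and Npc1 with MOTS-c. On the deposited scale, where the median of all genes was itself 0.39 and 0.34 higher, 38 genes rose and 0 fell with casting (median of the 40 genes 0.73), and 37 rose and 0 fell with MOTS-c against uncasted muscle (median 0.61). Over all genes tested on that scale, 62.2% rose and 7.43% fell with casting, and 60% rose and 6.94% fell with MOTS-c. Changes that turned positive there were, with casting, Ctsa 0.34, Ctsb 0.33, Ctsc 0.30, Tpp1 0.48, Gla 0.25, Psap 0.23, Asah1 0.45, Lipa 0.09, Mcoln1 0.47, Tfeb 0.41, Atp6v0b 0.29, Atp6v1b2 0.34 and Atp6ap1 0.42, and, with MOTS-c against uncasted muscle, Ctsa 0.23, Ctsb 0.43, Tpp1 0.41, Gla 0.21, Psap 0.18, Mcoln1 0.41, Tfeb 0.33, Atp6v0b 0.12, Atp6v1b2 0.24 and Atp6ap1 0.41. Ctsh with casting alone (0.26) and Lipa with MOTS-c (0.28) also turned positive, and passed on neither scale; this follows from the shift of all genes between the scales. For casted with MOTS-c against casted muscle, array weights gave 1 gene higher (Ctsh), and leaving out casted replicates 1 to 4 gave 2 higher and 3 lower; the cause was not tested. Leaving out each library in turn gave 20 to 22 higher and 5 to 7 lower with casting, 18 to 23 higher and 4 to 4 lower with MOTS-c against uncasted muscle, and 0 to 1 higher and 0 to 0 lower with MOTS-c against casted muscle, the 1 being Ctsh without casted replicate 1.

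For same-numbered libraries the correlation of deviations ran from -0.24 to 0.37, and was over 0.1 in 1, 3 and 2 of 8 pairs per pair of groups. Libraries of different numbers were not correlated for reference, so whether the numbers mark pairs cannot be decided from this. With the replicate block, 21 genes rose and 6 fell with casting, 22 rose and 4 fell with MOTS-c against uncasted muscle, and 0 and 0 passed between the casted groups; Npc1 with casting and Ctsh with MOTS-c against uncasted muscle passed there. Depth is unknown, so what it limits for low genes such as Glb1 and Gla cannot be given.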

Other observations

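Markers of other cell types in muscle moved as follows. Of 7 endothelial markers 6 fell in casted with MOTS-c against uncasted muscle and 7 in casted against uncasted muscle, with sums of 102 to 133 scaled TPM with MOTS-c, 90.5 to 126 in casted libraries and 117 to 176 in uncasted libraries. Of 6 fibroblast markers 2 and 4 fell, of 4 Schwann cell markers 1 and 3 fell, and of 3 tested satellite cell markers 0 and 1 fell, in the same order of comparisons. Of 4 adipocyte markers 2 rose and 1 fell with MOTS-c and none passed with casting alone. The 2 neutrophil and lymphocyte markers that could be tested rose in each, and that list summed to 1.74 to 19.8 scaled TPM with MOTS-c, 3.42 to 16.1 in casted libraries and 0.240 to 1.26 in uncasted libraries. None of these lists had a gene that passed between the casted groups. All tested endothelial, fibroblast and Schwann cell markers had a positive change with MOTS-c against casted muscle. So did 3 of 4 adipocyte, 2 of 3 satellite cell and 1 of 2 neutrophil and lymphocyte markers. Directions are on the scaled values; on the deposited scale 1 endothelial marker fell and 1 rose with MOTS-c, 2 fell and 1 rose with casting alone, fibroblast markers fell in 0 and 2 cases and rose in 2 of each, 1 Schwann cell marker rose with MOTS-c and 2 fell with casting alone, 1 satellite cell marker rose in each, and 3 adipocyte markers rose in each. The part of these cells in the lysosomal transcripts was not tested.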
